A study of Mus musculus with 32 samples.

Results

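The genes described here encode the proteins of MHC class II presentation and were followed from transferred monocytes to the macrophages of the colon and ileum. There are 8 of them, chosen by gene symbol: H2-Aa, H2-Ab1 and H2-Eb1, Cd74, H2-DMa, H2-DMb1 and H2-DMb2, and Ciita. All 8 are among the 24411 genes counted in CD11c-DTR recipients and among the 24421 genes counted in CX3CR1-DTR recipients. On mm9, 6 lie together on chromosome 17, between 34259777 (the start of H2-DMa) and 34453619 (the end of H2-Eb1). Cd74 is on chromosome 18 at 60963503 to 60972306 and Ciita on chromosome 16 at 10480165 to 10527733.

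Class II molecules are pairs of an alpha and a beta chain that hold peptides on the cell surface for CD4+ T cells. H2-Aa and H2-Ab1 encode the chains of I-A, and H2-Eb1 the beta chain of I-E, whose alpha chain is not made in the H2-b haplotype of C57BL/6 mice. Cd74 is the invariant chain, which fills the groove until it is cut in endosomes, H2-DM (H2-DMa with H2-DMb1 or H2-DMb2) exchanges its last fragment for other peptides, and Ciita, the class II transactivator, switches on the other genes through factors bound at their promoters. Intestinal macrophages that arise from Ly6C+ monocytes are known to gain class II as they mature.

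The study asked how monocytes differ once they have become macrophages in the colon or in the ileum. BM monocytes (CD117- CD11b+ CD115+ Ly6C+ GFPint) of Cx3cr1 GFP/+ CD45.1 donors were transferred into DTx-treated [CD11c-DTR > WT] BM chimeras, in which cells with an active Itgax promoter carry the diphtheria toxin receptor. Graft-derived cells were sorted 4, 8 or 12 days later by CD45.1 and GFP and described as CD11b+ CD64+ Ly6C-, and poly(A) RNA was read at its 3′ end by a derivation of MARS-seq. A further transfer went into CX3CR1-DTR recipients, with colonic cells taken on day 14.

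The monocyte graft (3 libraries) received no DTx. Colonic cells of day 4 (3), day 8 (4) and day 12 (4) and ileal cells of days 4, 8 and 12 (4 each) came from recipients given 18 ng DTx per gram before the transfer and 9 ng per gram every other day after it, and so did the colonic cells of Cx3cr1-DTR mice (6). All mice were on the C57BL/6 background, the sample labels give the CD11c-DTR transgene (Itgax-DTR/GFP) as the genotype of the graft and of all CD11c-DTR libraries and blood as the organ of the graft, and ages are not given. The text of the study names no MHCII in the sort of graft-derived cells, whereas the labels give every macrophage library a gate of CD45+ CD11b+ CD64+ Ly6C- MHCII+ and the graft one without MHCII. If cells were sorted for class II protein, part of any rise from the graft would be set by the gate, and gate and differentiation cannot be told apart. Dates in the labels place the CD11c-DTR libraries in 3 transfer experiments. Colon day 8 replicate 1, of experiment 1, was left out of the tests because the study lists 3 colonic data sets for day 8, and its values are given where it is named. The study states 4 repeats for CX3CR1-DTR recipients, and all 6 libraries were used here.

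Between 591817 and 5228664 reads were counted on genes per library. Values below are normalized reads, which are counts per 10000000 mapped reads, and in comparisons with CX3CR1-DTR libraries they are reads per 10000000 reads on genes. Markers of epithelium (12 genes, among them Epcam and Krt8) summed to 34.9 to 58.95 normalized reads in the graft, to 103175 to 158907 in the 10 colonic libraries tested and to 20765 to 125800.4 in the 12 ileal ones. Pan-leukocyte genes (14, among them Ptprc) moved the other way, with 137012 to 150455 in the graft, 2859 to 10733.5 in the colon and 7702 to 54128 in the ileum. The engrafted libraries held epithelial reads beside those of macrophages, and in bulk samples fewer cells of a type and less RNA per cell cannot be told apart. Of other leukocytes, the defining B cell gene Cd79a had at most 14.2 normalized reads in the colon and 393 in the ileum, Ms4a1 at most 5.22 and 16.3, and the dendritic cell gene Flt3 at most 1.79 and 9.90. Summed over 8 genes each, the B cell list had 255 to 295.5 normalized reads in the graft, 628 to 1126 in the colon and 771 to 1735 in the ileum, the dendritic cell list 291 to 537, 132 to 229.6 and 129 to 693, and the T cell list 0 to 16.95, 30.4 to 68.2 and 46.1 to 683. By edgeR, 4 of 4 tested B cell genes were higher in the ileum on day 12 than in the graft (median 4.17), and 3 were lower and 1, Blnk, higher in the colon than in the ileum (median −3.26). Of the T cell genes, near 0 in the graft and low in the colon, 4 of 4 tested were higher in the ileum than in the graft and lower in the colon than in the ileum on day 12. A gene was tested only with 50 normalized reads in at least 3 libraries. These T cell genes met that largely through the ileum, so the filter set most of their outcome in advance. The same holds for any B cell or dendritic cell gene low outside the ileum. Of 3 dendritic cell genes tested, 2 were higher and 1 lower in the ileum on day 12 than in the graft (median 1.48). Against the ileum of that day, 2 were lower in the colon, 1 did not pass and none was higher (median −2.98). Of all genes tested, 35.9% were higher and 20% lower in the ileum on day 12 than in the graft. In the colon 15.3% were higher and 17.2% lower than in the ileum of that day. The part of B, T, dendritic or epithelial cells in the class II values was not tested.

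Class II promoters carry an X box and a Y box, and the Y box core reads CCAAT on one strand. RefSeq promoter windows (GRCm38.p6, from 250 bases before a gene's start to 50 after it) were at hand for 5 of the 8 members. Those of H2-Eb1, H2-Aa and H2-DMb1 and the upstream one of H2-DMa are printed. The downstream H2-DMa window and that of H2-DMb2 are not, and no link between these letters and expression was tested. Capitals mark CCAAT, or the X box letters AGCAAC, on either strand. The windows are H2-Eb1 (chr17:34305617-34305916, plus strand), H2-Aa (chr17:34287774-34288073, minus strand), H2-DMb1 (chr17:34152941-34153240, plus strand) and the upstream of the H2-DMa windows (chr17:34122582-34122881, plus strand).
H2-Eb1: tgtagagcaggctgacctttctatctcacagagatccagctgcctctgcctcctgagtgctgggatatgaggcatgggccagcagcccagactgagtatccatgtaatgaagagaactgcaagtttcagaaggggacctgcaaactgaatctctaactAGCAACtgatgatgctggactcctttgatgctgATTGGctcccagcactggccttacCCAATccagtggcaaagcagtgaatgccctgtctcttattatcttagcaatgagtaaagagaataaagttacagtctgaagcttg
H2-Aa: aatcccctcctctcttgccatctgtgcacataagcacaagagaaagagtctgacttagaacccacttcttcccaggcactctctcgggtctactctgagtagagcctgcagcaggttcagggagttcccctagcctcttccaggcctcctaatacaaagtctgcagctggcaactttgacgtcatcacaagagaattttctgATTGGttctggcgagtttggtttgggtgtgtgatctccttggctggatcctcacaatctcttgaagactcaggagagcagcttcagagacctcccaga
H2-DMb1: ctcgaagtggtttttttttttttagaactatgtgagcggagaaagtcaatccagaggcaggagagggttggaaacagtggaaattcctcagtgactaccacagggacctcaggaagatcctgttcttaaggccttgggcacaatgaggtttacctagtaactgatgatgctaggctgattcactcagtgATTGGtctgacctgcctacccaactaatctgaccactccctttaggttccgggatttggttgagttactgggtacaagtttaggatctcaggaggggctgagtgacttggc
H2-DMa: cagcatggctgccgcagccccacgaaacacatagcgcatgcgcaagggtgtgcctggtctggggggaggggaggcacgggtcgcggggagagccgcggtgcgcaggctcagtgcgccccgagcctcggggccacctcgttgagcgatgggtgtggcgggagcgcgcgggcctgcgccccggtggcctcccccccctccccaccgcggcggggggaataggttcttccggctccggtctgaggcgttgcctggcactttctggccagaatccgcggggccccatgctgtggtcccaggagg
CCAAT in either direction was present in the windows of H2-Eb1, H2-Aa, H2-DMb1 and H2-DMb2 and in the downstream of the H2-DMa windows, and it occurs in 37.4% of all 32851 windows. In H2-Aa the reversed form ATTGG starts 48 bases before the gene's start and in H2-DMb1 61 bases before it. Among the windows of these 5 members, that of H2-Eb1 alone held AGCAAC followed by ATTGG after 20 to 45 bases. That arrangement was found in 0.374% of all windows. Only these exact letters were searched, so an X box spelt otherwise would be missed. Ahead of their ATTGG, H2-Aa reads ggcaac and H2-DMb1 agtaac, each a letter away from AGCAAC. Whether these serve as X boxes was not tested. The upstream H2-DMa window held neither motif. These are matches of letters and no evidence of binding.

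H2-Ab1, the beta chain of I-A, rose from the graft in both segments. It had 1258, 2157 and 547 normalized reads in the 3 graft libraries, 2232, 7803 and 4405 in the colon on day 4, 18096, 9812 and 3144 on day 8 and 10247, 16189, 4799.8 and 3348 on day 12. Every engrafted colonic library was above every graft library. Ileal libraries had 15683, 5263, 9759.8 and 13138 on day 4, 39772, 29318, 23679.5 and 7433 on day 8 and 60988, 11565, 22237 and 32419 on day 12. Relative to the graft, the log2 fold change (± SE, edgeR quasi-likelihood test) was 2.26 ± 0.73 on day 4 (adjusted p = 0.00999), 3.21 ± 0.76 on day 8 (adjusted p = 0.000863) and 3.03 ± 0.73 on day 12 (adjusted p = 0.000958) in the colon. In the ileum it was 3.50 ± 0.75, 4.74 ± 0.80 and 5.13 ± 0.81 (adjusted p = 0.000348, 2.6e-05 and 1.21e-05). The day 4 colonic call was lost without colon day 4 replicate 2 (1.62, adjusted p = 0.0725) or without graft replicate 3 (1.89, adjusted p = 0.0561). By group medians the order of H2-Ab1 was graft, colon day 4, colon day 12, colon day 8, ileum day 4, ileum day 8 and ileum day 12, and of the neighbours in it that were tested, graft and colon day 4 differed past the threshold, and colon days 4 and 12, colon days 12 and 8, ileum days 4 and 8 and ileum days 8 and 12 did not.

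H2-Aa, the partner chain of I-A, started from 1404, 3829 and 859.7 normalized reads in the graft. It had 2357, 4598 and 4061 in the colon on day 4, 13342, 6952 and 4953 on day 8 and 8818, 19203, 5070.3 and 3561 on day 12. The ranges of graft and colon overlapped on days 4 and 12 because of graft replicate 2, and were apart on day 8. In the ileum the values were 18308, 5581, 12442 and 16469 on day 4, 32645, 29864, 23034 and 7685 on day 8 and 60869.7, 16451, 20089.8 and 30136 on day 12, all above the graft. The change to the colon was 1.23 ± 0.64 on day 4 and missed the threshold (adjusted p = 0.104), and it passed on day 8 (2.30 ± 0.67, adjusted p = 0.00492) and day 12 (2.50 ± 0.65, adjusted p = 0.00187). Without graft replicate 2 it passed on day 4 as well (2.04, adjusted p = 0.0215). In the ileum H2-Aa rose by 3.15 ± 0.67, 4.02 ± 0.70 and 4.50 ± 0.72 on the log2 scale (adjusted p = 0.000343, 4.14e-05 and 1.34e-05).

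H2-Eb1, the beta chain of I-E, showed the largest rise of the 7 members tested in each of the 6 comparisons with the graft. Its graft level was 337, 903 and 211 normalized reads. Colonic libraries had 1326, 2982 and 2678 on day 4, 9860.3, 4204 and 2478 on day 8 and 5827, 10089, 3098 and 1653 on day 12. Ileal libraries had 9489, 3215, 5861 and 8466, then 19416, 31088, 15732 and 5775, then 32178, 7209, 12711 and 17342. No engrafted library reached down to the graft. The log2 fold changes were 2.64 ± 0.70, 3.75 ± 0.74 and 3.73 ± 0.72 in the colon (adjusted p = 0.00248, 0.000132 and 9.68e-05) and 4.25 ± 0.74, 5.69 ± 0.79 and 5.69 ± 0.79 in the ileum (adjusted p = 3.7e-05, 2.51e-06 and 2.31e-06) for days 4, 8 and 12.

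Cd74, the invariant chain, followed the binding chains. Graft libraries had 1196, 2308 and 741 normalized reads, colonic ones 1767, 4180.1 and 2473 on day 4, 10069.7, 4964 and 3439 on day 8 and 5418, 13894, 3443 and 2362 on day 12. Ileal ones had 13283, 3839, 8092 and 14215, then 23520.1, 32149.9, 17857 and 7640.4, then 42977, 11091, 14063 and 20581. Graft and colon overlapped on day 4 and were apart later, and graft and ileum were apart on all 3 days. The change to the colon was 1.37 ± 0.65 on day 4 (adjusted p = 0.0715), 2.37 ± 0.67 on day 8 (adjusted p = 0.00413) and 2.48 ± 0.65 on day 12 (adjusted p = 0.00205), and to the ileum 3.24 ± 0.68, 4.33 ± 0.72 and 4.50 ± 0.72 (adjusted p = 0.00028, 2.1e-05 and 1.4e-05). Without graft replicate 2 the colonic change of day 4 passed (1.89, adjusted p = 0.0387).

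**Figure D1:**
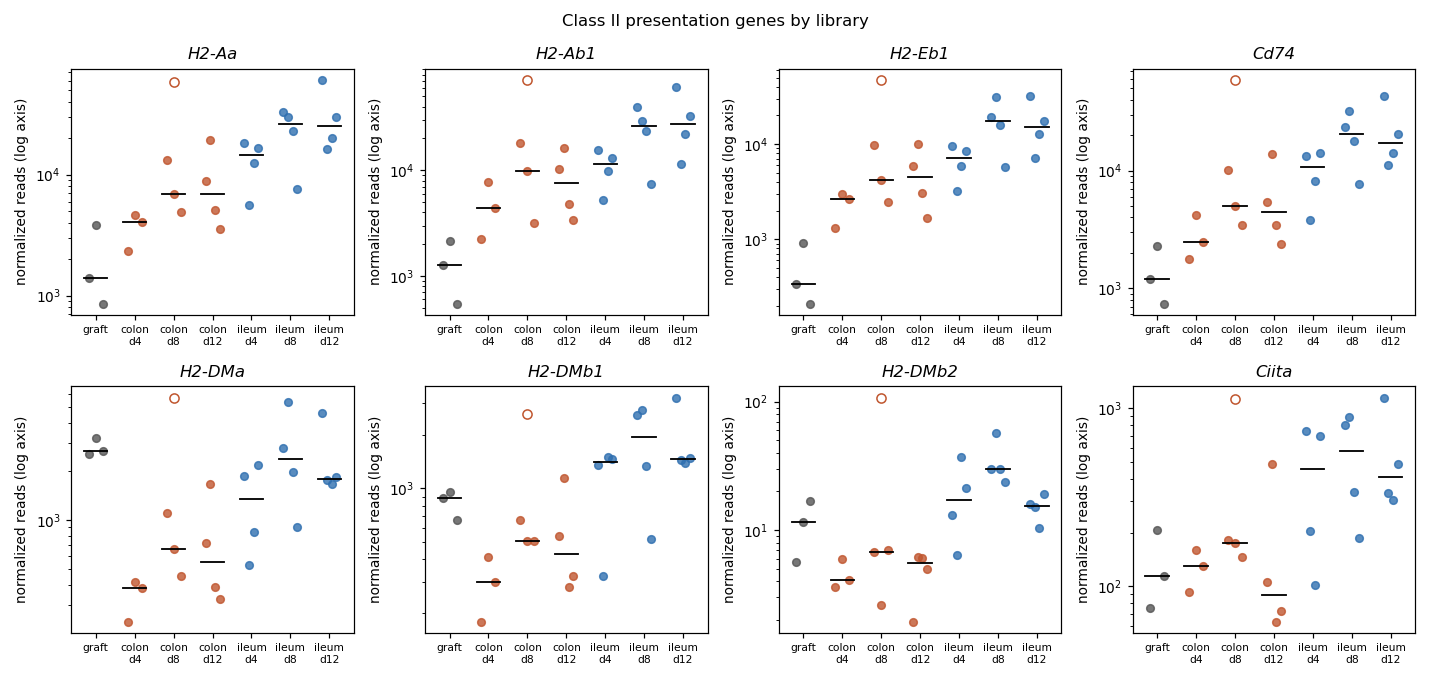
Normalized reads on a log axis for each of the 8 genes in the monocyte graft and in colonic and ileal libraries of days 4, 8 and 12, with a filled point per library, a bar at the group median and an open circle for colon day 8 replicate 1, which was not tested. H2-Aa, H2-Ab1, H2-Eb1 and Cd74 climb from the graft to the ileum, whereas H2-DMa has its highest group median in the graft, at 2662.

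H2-DM stood apart from the chains it serves. H2-DMa had 2571, 3199 and 2662 normalized reads in the graft and fewer in every colonic library tested: 237, 412 and 382 on day 4, 1108, 665 and 451 on day 8 and 724, 1669, 384 and 325 on day 12. The fall measured 2.68 on the log2 scale on day 4 (−2.68 ± 0.62, adjusted p = 0.000669), and the changes were −1.69 ± 0.59 on day 8 (adjusted p = 0.0175) and −1.55 ± 0.54 on day 12 (adjusted p = 0.0153). The call of day 8 was lost without colon day 8 replicate 3 (−1.61, adjusted p = 0.0559) or 4 (−1.45, adjusted p = 0.0785), and that of day 12 without colon day 12 replicate 3 (−1.35, adjusted p = 0.0506) or 4 (−1.31, adjusted p = 0.0527). Ileal libraries had 1859, 532, 839 and 2183 normalized reads on day 4, 2792, 5323, 1971 and 911 on day 8 and 4609.5, 1763, 1664 and 1839 on day 12. All 4 of day 4 were below the graft and later days overlapped with it, with changes of −0.64 ± 0.54, 0.43 ± 0.54 and 0.32 ± 0.54 that did not pass (adjusted p = 0.321, 0.527 and 0.644).

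H2-DMb1, the usual partner of H2-DMa, had 884, 959 and 668 normalized reads in the graft. Colonic libraries had 179, 412 and 299 on day 4, 669, 509 and 510.3 on day 8 and 539, 1139.7, 280.2 and 323 on day 12, with changes of −1.13 ± 0.56, −0.32 ± 0.55 and −0.24 ± 0.51 (adjusted p = 0.0853, 0.635 and 0.703). Only on day 4 were the ranges of graft and colon apart. In the ileum it had 1350.4, 325, 1493 and 1462 on day 4, 2570.0, 2761, 1342 and 520.0 on day 8 and 3235, 1447, 1399 and 1480.1 on day 12. It rose there on day 8 (1.58 ± 0.54, adjusted p = 0.0158) and day 12 (1.68 ± 0.54, adjusted p = 0.0106), while the value of day 4 was 0.91 ± 0.53 (adjusted p = 0.144). Ileum day 4 replicate 2 was far below the others, and without it the change of day 4 was 1.24 (adjusted p = 0.0365). The call of day 8 was lost without graft replicate 3 (1.45, adjusted p = 0.0639), and those of both days when libraries were scaled to their totals (1.10 and 1.17, adjusted p = 0.0787 and 0.0626). By medians the order for H2-DMa and H2-DMb1 was colon day 4, colon day 12 and colon day 8, with the graft last for H2-DMa and between colon and ileum for H2-DMb1.

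H2-DMb2, the other H2-DM beta chain, was hardly counted and was the only member below the filter of 50 normalized reads in at least 3 libraries, so it was not tested. Its counts were 2, 6 and 7 reads in the graft, 1 to 6 in the colonic libraries tested and 3 to 17 in the ileal ones, the last equal to 6.41 to 57.3 normalized reads. None of the 6 CX3CR1-DTR libraries had a read, which with a floor of 3 counts allows up to 7.11 to 24.5 reads per 10000000 reads on genes. The transcript on which it was counted is 779 bases long, and the GENCODE vM1 model of the gene (mm9) runs 458 bases further at its 3′ end, the end from which these libraries were read. By the same measure, the farthest end of any coding model, H2-Aa is at 13420 bases beyond its counted end and H2-Eb1 at −475. The other members lie between −76 and 0. The far end for H2-Aa falls inside H2-Ab1 (34400172 to 34406363), so its value does not show that reads of H2-Aa were missed. The coding sequence of H2-DMb2 matches that of H2-DMb1 at 95.9% of 786 aligned bases, so reads of the pair may be hard to place, and only uniquely mapping reads were kept.

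Ciita, the transactivator, had 75.8, 207 and 114 normalized reads in the graft. In the colon it had 93.2, 160.1 and 130.1 on day 4, 182, 175 and 146 on day 8 and 105, 486, 63.4 and 72.6 on day 12, all groups overlapping with the graft. The changes of 0.28 ± 0.73, 0.57 ± 0.73 and 0.72 ± 0.69 did not pass (adjusted p = 0.762, 0.513 and 0.372), and without colon day 12 replicate 2 the last was −0.40. Ileal libraries had 739.6, 205, 101 and 699 on day 4, 802, 890.0, 338 and 187 on day 8 and 1143, 335, 304 and 488 on day 12. Ciita rose in the ileum by 2.12 ± 0.71, 2.53 ± 0.72 and 2.60 ± 0.72 on the log2 scale (adjusted p = 0.0138, 0.00464 and 0.00353). On day 4 this call was lost without ileum day 4 replicate 1 (1.68, adjusted p = 0.056), graft replicate 1 (1.81, adjusted p = 0.0673) or graft replicate 3 (2.03, adjusted p = 0.0502), and on this day 2 of the 4 ileal libraries, replicates 2 and 3, lay within the range of the graft.

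Counted over the 7 members tested, 2 were higher and 1 lower in the colon on day 4, when 60.4% of all 11842 genes tested passed in either direction, 35.9% higher and 24.5% lower. On day 8 it was 4 higher and 1 lower (59.1% of all genes, 35.2% higher and 23.9% lower), and so it was on day 12 (62.6% of all genes, 37.7% higher and 24.9% lower). In the ileum 5 were higher on day 4 (56.7% of all genes passed, 36.2% higher and 20.5% lower), 6 on day 8 (53.9%, with 34.3% higher and 19.5% lower) and 6 on day 12 (55.9%, with 35.9% higher and 20% lower), and none was lower. The median member changed by 1.23, 2.30 and 2.48 in the colon and 3.15, 4.02 and 4.50 in the ileum on the log2 scale, against medians over all genes of 0.21, 0.22 and 0.24 and of 0.23, 0.20 and 0.22. All 6 comparisons share the same 3 graft libraries.

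Ratios within a library do not depend on how libraries are scaled. For each 100 reads of H2-Ab1 there were 148 to 486 reads of H2-DMa in the graft, 5.28 to 14.3 in the 10 colonic libraries and 5.67 to 18.2 in the 12 ileal ones. H2-DMb1 went from 44.5 to 122 per 100 H2-Ab1 reads in the graft to 3.695 to 16.2 in the colon and 4.57 to 15.3 in the ileum, and Ciita from 6.03 to 20.8 to 1.01 to 4.65 and 1.04 to 5.32. For these 3 genes the graft did not overlap with either segment, and colon and ileum overlapped. Any gene that rises less than H2-Ab1 falls in this ratio, as Ciita did in the ileum, where its own reads rose. Separation in this ratio was not counted over all genes, so it does not set these 3 apart. Cd74 had 95.1 to 135 reads per 100 of H2-Ab1 in the graft, 50.6 to 109 in the colon and 59.1 to 109.7 in the ileum, and H2-Aa 112 to 178, 58.9 to 158 and 82.1 to 142. H2-Eb1 went the other way on the whole, from 26.8 to 41.9 in the graft to 38.2 to 78.8 and 48.8 to 106.0. Set against the summed pan-leukocyte genes, the 8 members had 3.91 to 9.02 reads per 100 in the graft, 279.5 to 668 in the colon and 206 to 561 in the ileum, with colon and ileum overlapping over most of their range.

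**Figure D2:**
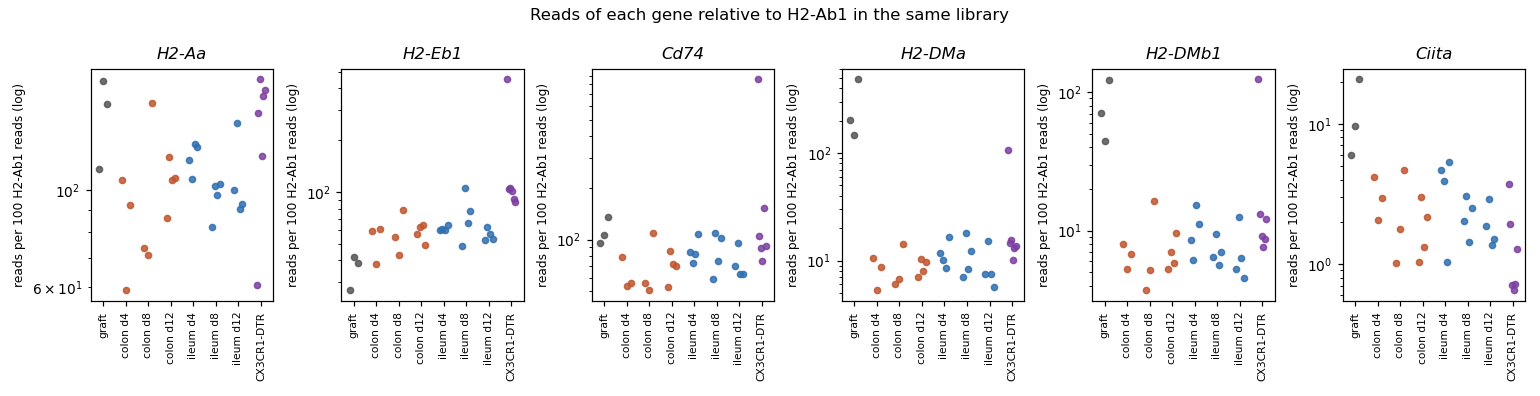
Reads of 6 genes per 100 reads of H2-Ab1 in the same library, on log axes, with a point per library for the graft, both segments by day and the CX3CR1-DTR colon. Relative to H2-Ab1, which itself rose, H2-DMa, H2-DMb1 and Ciita fall from the graft to both segments. In this ratio 1 CX3CR1-DTR library stands far above its group for H2-Eb1, Cd74, H2-DMa and H2-DMb1.

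Between the segments every member tested was lower in the colon. On day 12 all 7 passed, when 32.5% of all genes tested passed, 17.2% lower in the colon and 15.3% higher. Their log2 differences, colon minus ileum, lay close together, from −2.10 ± 0.62 for H2-Ab1 (adjusted p = 0.0131), −2.02 ± 0.57 for Cd74 (adjusted p = 0.00962) and −2.001 ± 0.57 for H2-Aa (adjusted p = 0.01) to −1.88 ± 0.63 for Ciita (adjusted p = 0.0242) and −1.86 ± 0.51 for H2-DMa (adjusted p = 0.00818). On day 8, when 35% of all genes passed, 18.3% lower and 16.7% higher, 6 members passed, with values from −2.12 ± 0.58 for H2-DMa (adjusted p = 0.0073) to −1.72 ± 0.63 for H2-Aa (adjusted p = 0.0363), and H2-Ab1 did not (−1.53 ± 0.68, adjusted p = 0.0815). On day 4, when 3.18% of all genes passed, 2.66% lower and 0.524% higher, only H2-DMb1 passed (−2.05 ± 0.56, adjusted p = 0.0462), and the others ranged from −2.04 for H2-DMa to −1.24 for H2-Ab1. With the transfer experiment as a block, 5 passed on day 4, namely H2-Aa (−2.26), H2-DMa (−2.16), H2-DMb1 (−2.20), Cd74 (−2.21) and Ciita (−2.14), and with the ileal libraries of experiment 2 alone 6 did. The ranges of colon and ileum overlapped for most members all the same, and were apart for H2-DMb1 on day 12, Ciita on day 8 and H2-Aa, H2-Eb1 and H2-DMa on day 4, beside the untested H2-DMb2 on each day. Separation of ranges was not counted over all genes, so these cases describe the libraries and do not set the members apart.

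Single libraries decided many of these calls. On day 12 the count fell from 7 to 1 without ileum day 12 replicate 1, the library with the highest values of every tested member on that day, where the differences shrank to between −1.26 for Ciita and −1.54 for H2-Ab1 among the 6 lost. This replicate had 38.4 epithelial reads per 100 pan-leukocyte reads, the lowest of the 12 ileal libraries. Its members summed to 151.9 per 100 macrophage reads, within the ileal range of 86.3 to 233. On day 8 the count fell from 6 to 2 without colon day 8 replicate 3 or 4 and to 3 without ileum day 8 replicate 2. On day 4 no member passed without any of the 3 colonic libraries or without ileum day 4 replicate 1 or 4, and 5 passed without ileum day 4 replicate 2. The direction did not change in any of these. Shares of all genes past the threshold are not given for these refits, nor for the block and experiment 2 fits above. The gains and losses are therefore not shown to be particular to the members. Within experiments, colon was below ileum for each of the 7 members in each of the 6 sets of day and experiment that hold both segments, by 1.13 to 10.5 times. With colon day 8 replicate 1 included, no member passed on day 8, where H2-Ab1 (0.10) and Cd74 (0.035) turned in sign, and 4 did on day 12. That library alone had 58389.8 normalized reads of H2-Aa, 71924 of H2-Ab1, 47446 of H2-Eb1 and 59255 of Cd74, above all other colonic libraries. It held 187 epithelial reads per 100 pan-leukocyte reads, against 961 to 4840 in the 10 colonic libraries tested. Its members summed to 233.6 per 100 macrophage reads (100.1 to 274 in those 10) and to 692.7 per 100 pan-leukocyte reads (279.5 to 668).

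Leukocyte genes moved with this difference. On day 12, 14 of 14 pan-leukocyte genes and 10 of 10 tested macrophage genes were lower in the colon as well, with medians of −2.42 and −2.06, while 11 of 12 epithelial genes were higher, with a median of 1.53. On day 8 it was 13 of 14 and 9 of 10 lower, and 8 epithelial genes higher and 1 lower. The part of epithelial reads in the difference was not tested. Scaled to the summed pan-leukocyte genes, the members' differences on day 12 were 0.30 to 0.44 and none passed (adjusted p = 0.338 to 0.59), and scaled to the macrophage genes they were 0.09 to 0.21 (adjusted p = 0.707 to 0.879). These scalings moved the median of all genes by 2.33 and 2.04, and relative to it the members stayed at −2.03 to −1.89 and −1.95 to −1.83. On day 8 the same scalings gave 0.24 to 0.64 and 0.37 to 0.77, and on day 4 −0.09 to 0.55 and −0.09 to 0.50, again with none past the threshold. Class II reads were thus lower in colonic libraries per read of the whole library, and no difference past the threshold was found when the libraries were scaled to leukocyte or macrophage reads.

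**Figure D3:**
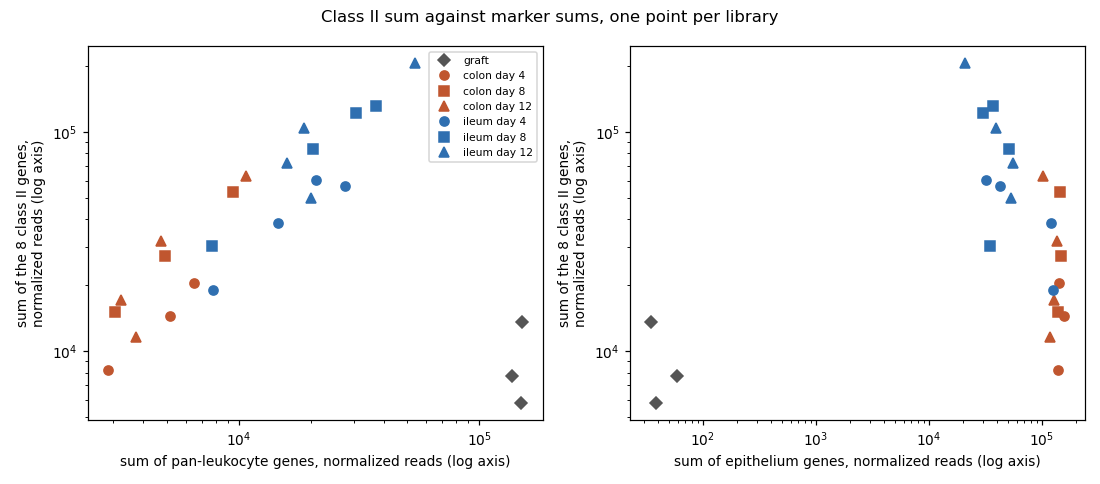
Summed normalized reads of the 8 class II genes (vertical, log axis) against the sums of 14 pan-leukocyte genes (left) and 12 epithelial genes (right, log axes), with a point per library, coloured by graft, colon and ileum and shaped by day. Engrafted libraries of both segments lie along a common band on the left, with colonic ones at its lower end, and the 3 graft libraries lie far to the right of it.

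The comparison with the graft depended on scaling in another way. Under pan-leukocyte scaling the median of all genes moved to between 4.85 and 4.95 in the colon and 2.49 and 3.15 in the ileum. All 7 members passed as higher in each of the 6 comparisons, a count that with such medians does not set them apart from other genes. Relative to the median they lay between −2.12 and 3.22 in the colon and −0.2 and 5.18 in the ileum on day 12 under this scaling. H2-DMa then read 1.93, 2.79 and 2.73 in the colon in place of its fall, which relative to the median of all genes was −2.12 on day 12. Under macrophage scaling H2-DMa was at 0.026, 0.63 and 0.35 in the colon and did not pass. H2-Ab1 and H2-Eb1 passed as higher in each of these 6 comparisons under TMM, library totals, pan-leukocyte and macrophage scaling alike.

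**Figure D4:**
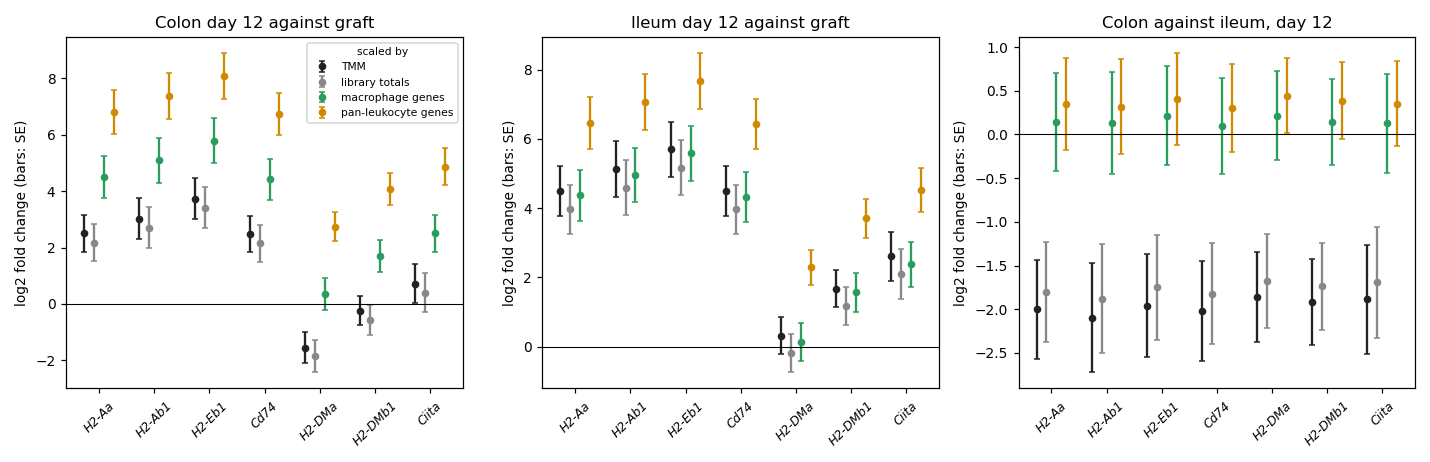
Fitted log2 fold changes with standard errors for 7 class II genes on day 12, colon against graft (left), ileum against graft (middle) and colon against ileum (right), under 4 ways of scaling the libraries. Against the graft, H2-DMa in the colon lies below 0 under TMM and library totals and above it under both leukocyte scalings. In the right panel values near −2 under TMM lie between 0.09 and 0.44 when scaled to macrophage or pan-leukocyte genes.

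Over time within a segment no member passed the test. From day 4 to day 8 the 7 members had log2 changes of 0.30 to 1.11 in the colon and 0.41 to 1.45 in the ileum, from day 8 to day 12 −0.18 to 0.20 and −0.12 to 0.48, and from day 4 to day 12 0.44 to 1.27 and 0.48 to 1.62. The largest was that of H2-Ab1 in the ileum from day 4 to day 12 (1.62 ± 0.62, adjusted p = 0.163). At an unadjusted p under 0.05, by edgeR, 2 members were higher on day 8 than on day 4 in the ileum (8.2% of all genes), 4 on day 12 than on day 4 (6.84%) and 1 in the colon on day 12 than on day 4 (1.58%). DESeq2 also called none at its adjusted threshold. Of all genes, 5.13% passed in the ileum from day 4 to day 8 (0.718% higher and 4.42% lower), 2.3% from day 4 to day 12 (0.279% higher and 2.02% lower), and 0% in the other 4 steps. The interaction of segment and time lay between −0.33 and 0.21 to day 8 and between −0.86 and 0.17 to day 12, with no member and 0% of all genes past the threshold. These values rest on leaving out colon day 8 replicate 1. With it the 7 members changed by 1.79 to 2.99 from day 4 to day 8 in the colon and by −1.89 to −1.10 from day 8 to day 12, and the interaction to day 8 was 1.33 to 1.90, with no member past the threshold (smallest adjusted p = 0.853, 0.907 and 0.572).

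CX3CR1-DTR recipients gave colonic cells in which the same members were higher than in the graft. H2-Eb1 had 5998, 6689.9, 8121, 10664, 8625 and 4637 reads per 10000000 reads on genes in the 6 libraries, against 490.2, 1281 and 306 in the graft, with no overlap (3.70 ± 0.61, adjusted p = 6.71e-05). Cd74 had 11375, 6738, 6901, 7958, 14481 and 4897 against 1740.3, 3273 and 1078, also with no overlap (2.38 ± 0.57, adjusted p = 0.00163). H2-Aa and H2-Ab1 passed as higher as well (2.09 ± 0.77, adjusted p = 0.0236, and 2.13 ± 0.64, adjusted p = 0.00767), but both overlapped with the graft because of CX3CR1-DTR replicate 1. That library had 801 of H2-Aa, below the lowest graft value of 1250, and 1324 of H2-Ab1, within the graft range of 796 to 3058. The call of H2-Aa was lost without graft replicate 1 (1.86, adjusted p = 0.0927) or 3 (1.70, adjusted p = 0.102). H2-DMa had 1422, 944, 1192, 1074, 1254 and 724 against 3742, 4537 and 3869.8 and was lower (−1.59 ± 0.38, adjusted p = 0.00173), whereas H2-DMb1 (−0.12 ± 0.39, adjusted p = 0.785) and Ciita (−1.11 ± 0.58, adjusted p = 0.098) did not pass. Counting all 7 members, 4 were higher and 1 lower, and 75.5% of all 11718 genes tested passed in either direction, 39.5% higher and 36% lower. Under pan-leukocyte scaling, which moved the median of all genes to 4.98, H2-DMa read 3.19 and all 7 passed, and relative to that median H2-DMa was at −1.79.

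CX3CR1-DTR replicate 1 stood apart in its make-up. It had 801 reads of H2-Aa and 1324 of H2-Ab1, where the other 5 libraries had 9015 to 15583 and 5334 to 10559, yet its H2-Eb1 and Cd74 reads lay within the range of the others and its H2-DMb1, at 1643, was the highest. Per 100 reads of H2-Ab1 it had 453 of H2-Eb1 and 859 of Cd74, against 86.95 to 105.6 and 75.4 to 152 in the other 5. Its H2-DMa, at 1422, was the highest of the 6 as well, whereas its Ciita, at 49 from 6 reads, was the lowest. Its pan-leukocyte and macrophage sums, at 11072 and 27235.5, were the highest of the 6 libraries.

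Compared with CD11c-DTR colon of day 12, Ciita alone passed. It had 49, 123, 54.5, 68.4, 68.8 and 68.3 reads per 10000000 reads on genes in CX3CR1-DTR recipients and 154, 825, 113 and 129 in CD11c-DTR recipients (−2.04 ± 0.54, adjusted p = 0.00457). Of the 6 libraries, 5 lay below all 4 of the others. Without colon day 12 replicate 2 the difference was −0.88 (adjusted p = 0.0379), and under pan-leukocyte and macrophage scaling it was −1.12 and −1.30 (adjusted p = 0.0482 and 0.0184). Differences of the other 6 ranged from −1.08 ± 0.52 for H2-Ab1 (adjusted p = 0.0859) to −0.07 ± 0.36 for H2-DMb1 (adjusted p = 0.876), and without colon day 12 replicate 4 H2-Ab1 passed too (−1.34, adjusted p = 0.0469). The share of 1 in 7 stands beside 60.7% of all genes tested that passed in either direction, 25.2% higher and 35.4% lower. B2m, a gene of nearly every nucleated cell, was among the lower genes (−4.39 ± 0.53), with 100.1 to 1235 reads per 10000000 reads on genes. Recipient strain, day and sequencing table differ together here and cannot be told apart.

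**Figure D5:**
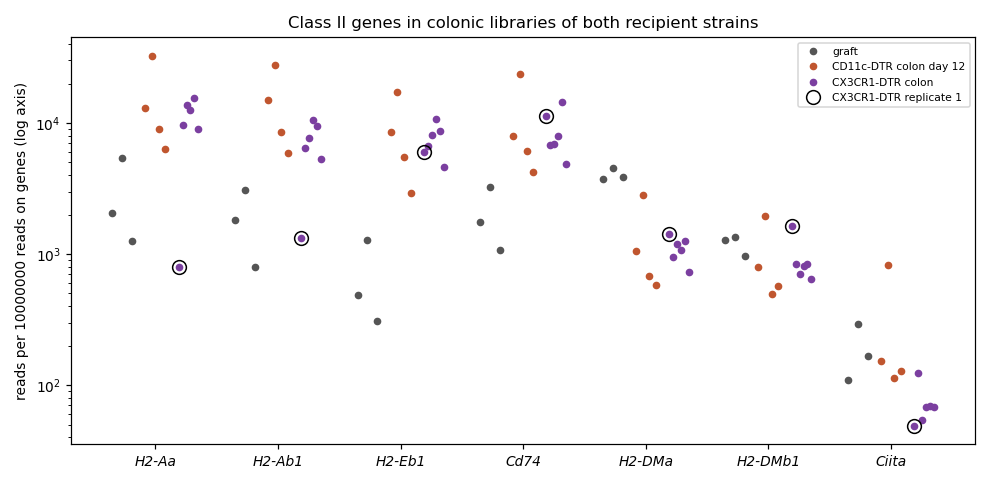
Reads per 10000000 reads on genes, on a log axis, for 7 class II genes in the graft, in CD11c-DTR colon of day 12 and in CX3CR1-DTR colon, with a point per library and replicate 1 of the CX3CR1-DTR colon circled. The circled library lies below its group for H2-Aa and H2-Ab1 and within or above it for H2-Eb1, Cd74, H2-DMa and H2-DMb1, and the purple points of Ciita lie below most of the others.

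Other genes of the pathway are set beside 37.7% of all genes higher and 24.9% lower in the colon on day 12 than in the graft, 35.9% and 20% in the ileum, and 15.3% and 17.2% in the colon against the ileum. Of 12 genes of antigen and invariant chain processing, 3 were higher and 5 lower in the colon on day 12 than in the graft. March8, a ubiquitin ligase that removes class II from the surface (2.14 ± 0.22, adjusted p = 1.88e-08), Ctsl, a protease of the endosome (1.82 ± 0.33, adjusted p = 4.34e-05), and Lgmn, the asparagine endopeptidase (1.69 ± 0.58, adjusted p = 0.0138), were higher. Cst3, a cathepsin inhibitor (−2.01 ± 0.29, adjusted p = 2.91e-06), Ctss, the protease that trims the invariant chain (−1.98 ± 0.43, adjusted p = 0.000362), and Ifi30, a thiol reductase (−1.90 ± 0.52, adjusted p = 0.0031), were lower. In the ileum 4 were higher and 2 lower, led by Lgmn (3.23 ± 0.62, adjusted p = 0.000108) and Ctsl (2.70 ± 0.34, adjusted p = 5.59e-07) and by Ctse, another cathepsin (−3.90 ± 0.50, adjusted p = 6.53e-07), and Cst3 (−1.32 ± 0.29, adjusted p = 0.000474). Between segments 2 were higher and 7 lower in the colon on day 12, with Ctse (2.62 ± 0.46, adjusted p = 0.000508) on the one side and March1, a further ligase of class II (−2.33 ± 0.59, adjusted p = 0.0044), on the other.

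Of 13 genes of class II transcription, 1 was higher and 10 lower in the colon on day 12 than in the graft (median −0.98), and in the ileum 1 was higher, 4 were lower and 8 did not pass (median −0.49). Pan-leukocyte genes were lower as well, 14 of 14 in the colon (median −4.27) and 9 of 14 in the ileum (median −1.68). The gene higher in both was Prdm1, a repressor known to silence Ciita in plasma cells, by 2.16 ± 0.64 in the colon (adjusted p = 0.00518) and 4.57 ± 0.65 in the ileum (adjusted p = 3.17e-06). Spi1 (PU.1) was lower in the colon (−3.19 ± 0.59, adjusted p = 6.26e-05), and so were Irf4 (−2.68 ± 0.69, adjusted p = 0.00166) and Irf8 (−2.17 ± 0.38, adjusted p = 3.26e-05). In the ileum Irf8 (−1.02 ± 0.37, adjusted p = 0.0246) was lower together with Nfyb, a subunit of the factor that binds CCAAT (−1.05 ± 0.22, adjusted p = 0.000248), and Rfxap, a part of the X box complex (−0.94 ± 0.23, adjusted p = 0.00145). Between segments none was higher and 5 lower in the colon on day 12, among them Irf4 (−2.95), Prdm1 (−2.41) and Spi1 (−2.08). Of 8 genes of interferon gamma signalling, the main inducer of Ciita, 4 were lower in the colon and none higher, and in the ileum Irf1 was higher (1.39 ± 0.33, adjusted p = 0.00111) and 3 lower.

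Class I presentation served as a neighbouring route. Of 14 genes, 7 were lower and none higher in the colon on day 12 than in the graft, led by Tap1, a peptide transporter (−2.54 ± 0.42, adjusted p = 1.72e-05), Psmb8 of the immunoproteasome (−2.19 ± 0.45, adjusted p = 0.000192) and Nlrc5, the class I transactivator (−1.78 ± 0.54, adjusted p = 0.00673). In the ileum B2m (1.46 ± 0.42, adjusted p = 0.00509) and Canx (0.85 ± 0.22, adjusted p = 0.00225) were higher and none lower. Of 6 costimulation genes, Cd274 and Pdcd1lg2, the ligands of PD-1, were higher in the colon (2.95 ± 0.74, adjusted p = 0.00141, for Cd274, and adjusted p = 0.0382 for Pdcd1lg2) and Icosl and Cd40 lower (−1.63 ± 0.42, adjusted p = 0.00165, and −1.45 ± 0.59, adjusted p = 0.0351). In the ileum 4 were higher and none lower, among them Cd274 (5.00 ± 0.76), Cd80 (3.39 ± 0.86) and Pdcd1lg2 (adjusted p = 0.000654). Pdcd1lg2 had no read in 2 of the 3 graft libraries and 1.94 normalized reads in the other, so no fold against the graft is given, and on day 12 it held 0 to 52.9 in the colon and 38.4 to 144.9 in the ileum. All 6 were lower in the colon than in the ileum on day 12, as were 10 of the 14 class I genes, beside the leukocyte genes that moved the same way. H2-Eb2, a less known neighbour of H2-Eb1, was the only other class II gene tested of 4. It had 7.80 to 95.1 normalized reads in the ileum on day 12 against 0, 0 and 2.42 in the graft (adjusted p = 0.000248). In the colonic libraries tested the 4 genes summed to at most 47.3 normalized reads, so H2-Eb2 passed the filter through the ileum alone. Its call was thereby set in advance and is no support. Pdcd1lg2 could not pass the filter through the graft either.

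In CX3CR1-DTR recipients the lists were mixed against CD11c-DTR colon of day 12. Of 13 class II transcription genes 3 were higher and 6 lower, with Rfxank of the X box complex at 1.05 ± 0.20 (adjusted p = 0.000336) and its partner Rfx5 at −3.30 ± 0.48 (adjusted p = 3.78e-05), and the coactivators Kat2b (−4.30 ± 0.46, adjusted p = 1.91e-06) and Crebbp (−3.80 ± 0.39, adjusted p = 1.45e-06) lower. Of 12 processing genes 1 was higher and 5 lower, led by March1 (−6.07 ± 0.80, adjusted p = 1.46e-05), and of 14 class I genes 4 were higher and 4 lower, led by Pdia3 (−5.56 ± 0.48, adjusted p = 2.7e-07). Interferon gamma signalling had 3 of 8 higher, with Irf1 at 1.27 ± 0.24 (adjusted p = 0.000328), and none lower. Kat2b was counted on another transcript in the table of CX3CR1-DTR recipients than in that of CD11c-DTR recipients, and the 8 members on the same transcripts in both.

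Across the 25 libraries tested, H2-Ab1 ran closest to H2-Eb1, H2-Aa and Cd74. Over log2 values with 50 added, Pearson's r with H2-Ab1 was 0.981 for H2-Eb1, 0.976 for H2-Aa and 0.971 for Cd74, the first 3 of 5576 genes with a mean of at least 200 normalized reads. It was 0.766 for Ciita (rank 115), 0.665 for H2-DMb1 (rank 273) and 0.378 for H2-DMa (rank 653). The nearest genes outside the set were Dnase1l3, a secreted DNase (0.951), Cd72 (0.937), Ms4a7 (0.933), Axl, a receptor tyrosine kinase (0.926), and C1qc, a chain of complement C1q (0.923). Dnase1l3 had 2.81 to 5.81 normalized reads in the graft, 219 to 3254 in the colon and 835 to 18293 in the ileum, and C1qc 11.2 to 21.8, 568.2 to 3494 and 1539.6 to 13475. These correlations describe libraries that share group, depth and the share of leukocyte reads.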

How the data were processed

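The authors captured poly(A) RNA with oligo(dT) beads, prepared libraries by a derivation of MARS-seq, mapped the reads to mm9 with HISAT 0.1.6, kept uniquely mapping reads and made the deposited raw counts per gene with HOMER, over exons and on the sense strand. Their notes also name bcl2fastq. Whether reads were collapsed by molecular identifier is not given in the sources used here, so counts and floors cover counting error only. The second count table has 52 columns without a sample in the labels, which were not used.

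Counts were divided by the mapped reads in the file headers and given per 10000000. Genes that reached 50 normalized reads in 3 or more libraries were tested with the edgeR 4.0.16 quasi-likelihood test (TMM, R 4.3.3) and Benjamini-Hochberg adjustment over all genes tested, with a threshold of 0.05. All p-values in the text come from this test. The first fit held 25 libraries of 7 groups. The second held 13 libraries (graft, colon day 12 and CX3CR1-DTR colon) on the 24148 genes both tables share. The scripts were tested on simulated data. Per the labels, libraries are separate samples, but nothing says which came from separate mice, so p-values measure the spread between libraries, which may be technical.

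Transfer experiments were read from the dates in the labels, with 1 date taken as a slip of the year. Deviations from group means correlated with a median of 0.02 over 96 pairs of libraries of the same experiment and −0.01 over 171 other pairs. Of 51 pairs within groups, none was a duplicate (smallest chi-square per degree of freedom 4.731).

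The members and lists were chosen with earlier results of these data known. Named genes were the 8 members, in each list up to 3 genes past the threshold in each direction by size of change, and the 5 genes most correlated with H2-Ab1. Alternatives were other scalings, no filter, DESeq2 1.42.0, all 4 colon day 8 libraries, ileal day 4 libraries of experiment 2 alone, the experiment as a block, the compared groups alone and leaving out each library. Scaling to macrophage genes was added after seeing the data. Promoter sequences and their coordinates are from RefSeq (GRCm38.p6), whose build differs from that of the counts. Values were tabulated with pandas 2.3.3 and drawn with matplotlib 3.10.9.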

Additional observations from a re-analysis of the deposited data

Results flagged for a closer look

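In groups of 4 to 6 libraries, 6 of 39 gene and group sets held 1 library far from the others by Dixon's criterion, and chance gives such a library in about 1 in 20 sets. Ciita was highest in colon day 12 replicate 2, at 485.8 normalized reads, and H2-DMb1 lowest in ileum day 4 replicate 2, at 324.5. Ileum day 12 replicate 1 stood above its group for H2-DMa (4609.5) and H2-DMb1 (3235.2). In CX3CR1-DTR recipients, H2-DMb1 was highest in replicate 1, at 1642.5 reads per 10000000 reads on genes, and Ciita in replicate 2, at 123.0.

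Colon day 8 replicate 1, which entered only the alternative with all 4 colon day 8 libraries, had more normalized reads of all 8 genes than any graft library. It had 58389.8 of H2-Aa (graft at most 3829), 71923.7 of H2-Ab1 (2157), 47445.9 of H2-Eb1 (903), 5696.7 of H2-DMa (3199), 2630.3 of H2-DMb1 (959), 107.4 of H2-DMb2 (16.95), 59255.3 of Cd74 (2308) and 1120.6 of Ciita (207). The graft and this library were compared without a test. With 187 epithelial reads per 100 pan-leukocyte reads it also differed in make-up from the 10 colonic libraries tested, which had 961 to 4840.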

How the results depend on the processing

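Scaling decided most of what changed. With pan-leukocyte genes the number of members past the threshold from graft to colon on day 4 was 7, and with macrophage genes 6, in place of 3. The median of all genes moved there from 0.21 to 4.95 and 3.1, so these counts do not set the members apart from other genes. Between segments the number of members past the threshold was 0 on days 4, 8 and 12 with either list. Under pan-leukocyte scaling H2-DMa turned to 1.93, 2.79 and 2.73 in the colon on days 4, 8 and 12 and to 1.93 in the ileum on day 4, and H2-DMb1 in the colon to 3.41, 4.30 and 4.09. Under macrophage scaling the same values were 0.026, 0.63, 0.35 and 0.12 for H2-DMa and 1.53, 2.18 and 1.71 for H2-DMb1. Colon against ileum turned under pan-leukocyte scaling on day 4 for H2-Aa (0.020), H2-Ab1 (0.55), H2-Eb1 (0.28), Cd74 (0.075) and Ciita (0.21), on day 8 for H2-Aa (0.57), H2-Ab1 (0.64), H2-Eb1 (0.27), H2-DMa (0.24), H2-DMb1 (0.64), Cd74 (0.28) and Ciita (0.59), and on day 12 for H2-Aa (0.35), H2-Ab1 (0.32), H2-Eb1 (0.41), H2-DMa (0.44), H2-DMb1 (0.39), Cd74 (0.30) and Ciita (0.35). Under macrophage scaling it turned on day 4 for H2-Ab1 (0.50), H2-Eb1 (0.22), Cd74 (0.042) and Ciita (0.044), on day 8 for H2-Aa (0.69), H2-Ab1 (0.74), H2-Eb1 (0.39), H2-DMa (0.37), H2-DMb1 (0.77), Cd74 (0.41) and Ciita (0.72), and on day 12 for H2-Aa (0.14), H2-Ab1 (0.13), H2-Eb1 (0.21), H2-DMa (0.21), H2-DMb1 (0.14), Cd74 (0.095) and Ciita (0.13). From graft to CX3CR1-DTR colon, H2-DMa, H2-DMb1 and Ciita turned to 3.19, 4.61 and 3.75 under pan-leukocyte and 0.63, 2.08 and 1.196 under macrophage scaling, which moved the median of all genes from 0.13 to 4.98 and 2.39, and relative to it H2-DMa was at −1.79 and −1.77. Against CD11c-DTR colon of day 12, H2-Aa, H2-Eb1, H2-DMa, H2-DMb1 and Cd74 turned to 0.25, 0.49, 0.46, 0.52 and 0.42 under the former and 0.024, 0.27, 0.28, 0.37 and 0.26 under the latter. Scaling to library totals left 0 members past the threshold between segments on day 4, 4 in place of 6 on day 8, and 5 in place of 6 from graft to ileum on days 8 and 12, where H2-DMb1 was lost (adjusted p = 0.0787 and 0.0626), and turned Ciita from graft to colon on day 4 (−0.073) and H2-DMa from graft to ileum on days 8 and 12 (−0.032 and −0.19).

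With all 4 colon day 8 libraries, the count between segments was 0 on day 4, 0 on day 8 and 4 on day 12, and values turned for H2-DMa (0.040) and H2-DMb1 (0.87) from graft to colon on day 8 and for H2-Ab1 (0.10) and Cd74 (0.035) between segments on day 8. The colonic changes from day 8 to day 12 were then −1.89 to −1.10 in place of −0.18 to 0.20. Between segments on day 4, DESeq2 called 4 members, the ileal libraries of experiment 2 alone gave 6, and the compared groups alone gave 0. The compared groups alone gave 6 from graft to colon on day 4. With the transfer experiment as a replicate block, 5 passed between segments on day 4 and Ciita from graft to colon on day 4 turned to −0.19, and no other call of a count moved past 1.5 times. Without the filter on low counts, 2 passed in CX3CR1-DTR against CD11c-DTR colon, H2-DMb2 being added. Shares of all genes past the threshold are not given for these settings or for the scalings above. The counts therefore do not set the members apart from other genes. The cause of these changes was not tested.

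Leaving out 1 library at a time gave counts of 2 to 5, 4 to 5 and 4 to 5 from graft to colon and 4 to 6, 5 to 6 and 6 from graft to ileum on days 4, 8 and 12, 0 to 5, 2 to 7 and 1 to 7 between segments, 4 to 5 from graft to CX3CR1-DTR colon and 1 to 2 against CD11c-DTR colon of day 12. Shares of all genes are not given beside these counts, so their shifts are not shown to be particular to the members. The sign turned within the ranges of Ciita from graft to colon on day 4 (−0.059 to 0.73) and day 12 (−0.40 to 1.17), of H2-DMa from graft to ileum on day 8 (−0.0021 to 0.68) and day 12 (−0.23 to 0.49), and in CX3CR1-DTR against CD11c-DTR colon of H2-Aa (−0.85 to 0.10), H2-Eb1 (−0.50 to 0.38), H2-DMa (−0.48 to 0.49), H2-DMb1 (−0.27 to 0.52) and Cd74 (−0.55 to 0.49). DESeq2 size factors in edgeR changed no call or direction in 77 member comparisons. With 3 to 6 libraries a group and 1 read worth 1.17 to 9.22 normalized reads, Ciita and H2-DMb2 are the members that depth limits most.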
